A study of Mus musculus with 6 samples.

Results

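Guanylate-binding proteins (GBPs) and immunity-related GTPases (IRGs) were described in NOTCH1-driven mouse leukemia cells labelled as lacking Klf4 or as wild type. The set was every probe of the value table whose platform annotation names Gbp2, Gbp3, Gbp4, Gbp6, Gbp7, Igtp, Irgm1, Irgm2, Iigp1 or Tgtp1, which gave 19 of 45281 probes and all 10 genes. RNA of T cell acute lymphoblastic leukemia (T-ALL) cells was hybridised to Illumina bead arrays, with 3 samples labelled as knock-out, called Klf4-deficient here after that label, and 3 control samples, labelled as wild type. Every sample was male, and in every sample NOTCH1 had induced the leukemia and GFP+ CD4+ CD8+ cells had been sorted from the bone marrow of transplanted mice after 4 weeks. The sources used here give no Klf4 allele, no promoter behind any Cre, no strain and no age. Nothing in the labels says that the 3 samples of a group came from separate mice, so the p-values measure the spread between these samples, which may be technical.

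GBPs and IRGs are GTPases that interferon gamma induces strongly, and type I interferon more weakly, in most mouse cell types. They coat the vacuoles of intracellular pathogens, break these membranes open and deliver their contents to autophagy and inflammasome pathways. Irgm1, Irgm2 and Igtp (also called Irgm3) are the regulatory IRGs, which sit on the cell's own membranes and keep the effector IRGs, such as Iigp1 (Irga6) and Tgtp1 (Irgb6), inactive there. In T cells Irgm1 is also known to limit cell death after stimulation with interferon gamma.

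The genes lie in clusters. Gbp7, Gbp3 and Gbp2 lie in 1 cluster on chromosome 3 (GRCm38.p6, between 142530336 and 142638008), Gbp4 and Gbp6 lie on chromosome 5, and Irgm1, Tgtp1, Igtp and Irgm2 lie on chromosome 11. For 7 of the 10 genes, RefSeq's table of promoters on GRCm38.p6 held a window from 250 bases before to 50 bases after the annotated start. Each of the 7 held GAAA, any 2 bases and GAAA again on one strand or the other, upstream of a start. These are the core letters of the interferon-stimulated response element (ISRE), which IRF factors bind. The same letters occurred in 3.44% of 32851 promoter windows of the same length. The letters TTCNNNGAA, the core of the gamma-activated site (GAS), read the same pattern on both strands and occurred in 8.30% of the windows. The stretches around these matches are shown because all 7 hold the ISRE letters. Capitals mark the ISRE and GAS letters, and each sequence reads 5′ to 3′ on the strand of its gene.
Gbp2 at chr3:142620589-142620628, plus strand: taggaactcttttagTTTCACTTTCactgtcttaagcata
Gbp3 at chr3:142559984-142560029, plus strand: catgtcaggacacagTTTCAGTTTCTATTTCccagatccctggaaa
Gbp7 at chr3:142530215-142530307, plus strand: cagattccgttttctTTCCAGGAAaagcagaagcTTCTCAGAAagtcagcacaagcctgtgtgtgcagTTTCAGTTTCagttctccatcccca
Igtp at chr11:58199496-58199546, plus strand: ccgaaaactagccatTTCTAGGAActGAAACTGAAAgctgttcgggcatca
Irgm2 at chr11:58214887-58214937, plus strand: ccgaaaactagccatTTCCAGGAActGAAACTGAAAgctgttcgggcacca
Tgtp1 at chr11:48992299-48992349, minus strand: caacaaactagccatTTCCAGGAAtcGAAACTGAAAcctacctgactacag
Irgm1 at chr11:48871420-48871465, minus strand: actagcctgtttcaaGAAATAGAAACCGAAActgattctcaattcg

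In the 3 GBP promoters the ISRE letters lay on the opposite strand and so read TTTC, 2 bases and TTTC on the gene's own strand. In the 4 IRG promoters they read GAAA, 2 bases and GAAA. Igtp, Irgm2 and Tgtp1 each carried the GAS letters just ahead of the ISRE letters. Over 50 bases lined up at the ISRE, Igtp and Irgm2 were identical at 48, Irgm2 and Tgtp1 at 35, and Irgm1 and Irgm2 at 25. The GBPs were identical to each other at 20 to 22 of these bases, and to the IRGs at 5 to 12. Each sequence was compared on its gene's own strand, where TTTC in a GBP faced GAAA in an IRG. The fixed ISRE letters thus matched within a family and could not match between the families. The counts between the families are therefore set partly by orientation. Gbp3 and Irgm1 each held a pair of overlapping ISRE matches, and for Gbp3 the second annotated start held no match. The ISRE match farthest from the start began 59, 45 and 53 bases upstream of the start in Gbp2, Gbp3 and Gbp7. In Igtp, Irgm2, Tgtp1 and Irgm1 it began 34, 64, 77 and 30 bases upstream. A match in these letters is a description of the window and not a bound site.

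**Figure D1:**
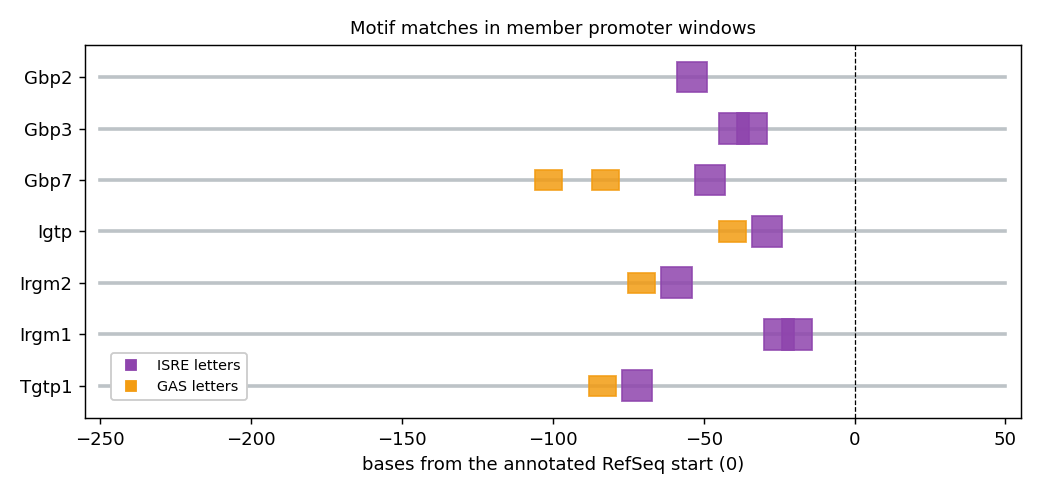
Positions of the ISRE letters (purple, either strand) and the GAS letters (orange, TTCNNNGAA) in the promoter windows of 7 member genes, with the x axis in bases from the annotated RefSeq start. The ISRE matches of these windows begin between 77 and 24 bases upstream of the start, and the GAS matches of Igtp, Irgm2 and Tgtp1 lie just ahead of them.

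The deposited values are background-subtracted probe intensities, called signals here. The background limit of an array was set at 3 times the SD of its below-0 values mirrored around 0, which came to between 21.8 and 23.7, and probes over it counted as above background. Between 17152 and 17446 probes passed it on an array. Levels are signals, or log2 of signal plus 16 after quantile normalization, and differences are Klf4-deficient minus control on that log2 scale with their standard error (SE), from limma over all 45281 probes. The mean signal of Klf4-deficient array 3 was 359, against 417 to 445 on the 5 other arrays, so that its signals are low before normalization. Cd4 and Cd8b1, genes of the sorting markers, and the T-lineage genes Thy1, Rag1 and those of CD3 were above background on all 6 arrays. Genes of other bone marrow cells were bright too. The mean signal was 25899 for the neutrophil gene S100a8 and 35952 for the erythroid gene Hba-a1. It was 1259 for Cd4, 27603 for Cd8b1 and 31798 for Thy1. Passing the limit therefore does not identify the cells. The Cd8a probe passed the limit on 1 of 3 Klf4-deficient arrays and on 3 of 3 controls. The brightest Klf4 probe had signals of 80.6, 46.0 and 85.4 in the Klf4-deficient arrays, against 44.0, 18.4 and 24.6 in the controls, with control 2 under the limit. It was thus higher, not lower, in the arrays labelled as knock-out, with groups that did not overlap. The log2 difference was 1.03 ± 0.32 (SE, adjusted p = 0.738 from limma). The other Klf4 probes were under the limit throughout, and it is not known here whether any of these probes lies inside the deleted region, so they do not check the deletion.

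Of the 10 genes, 6 had a probe above background on all 6 arrays: Gbp2, Gbp3, Gbp7, Igtp, Irgm1 and Irgm2. The 4 others, Gbp4, Gbp6, Iigp1 and Tgtp1, had no probe above background on any array. At the level of probes, 8 of 19 were above background on all arrays, 2 on some and 9 on none. None of the 19 probes passed the adjusted threshold of 0.05 in limma in either direction, against 2 of all 45281 probes (0.00442%). At an unadjusted p under 0.05, 2 of the 19 were higher and 0 lower in Klf4-deficient arrays, where 2.64% of all probes were higher and 3.40% lower. The groups did not overlap for 3 of the 19 probes, all higher in Klf4-deficient arrays, against 4.29% higher and 5.26% lower of all probes. Among the 15173 probes above background on all arrays, 4.41% were higher and 6.89% were lower by that unadjusted measure, and the groups did not overlap for 6.78% higher and 10% lower. Of the 8 member probes in that class, 2 were higher and 0 lower by either measure. These shares rest on few probes, some of which measure the same gene. The median log2 difference was 0.29 over these 8 probes and -0.02 over the 15173, given as a description. With 1 probe a gene, the median of the 10 genes was 0.16, which is the midpoint of Gbp4 and Tgtp1, both under the background limit on every array, and so is no level of the measured genes.

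**Figure D2:**
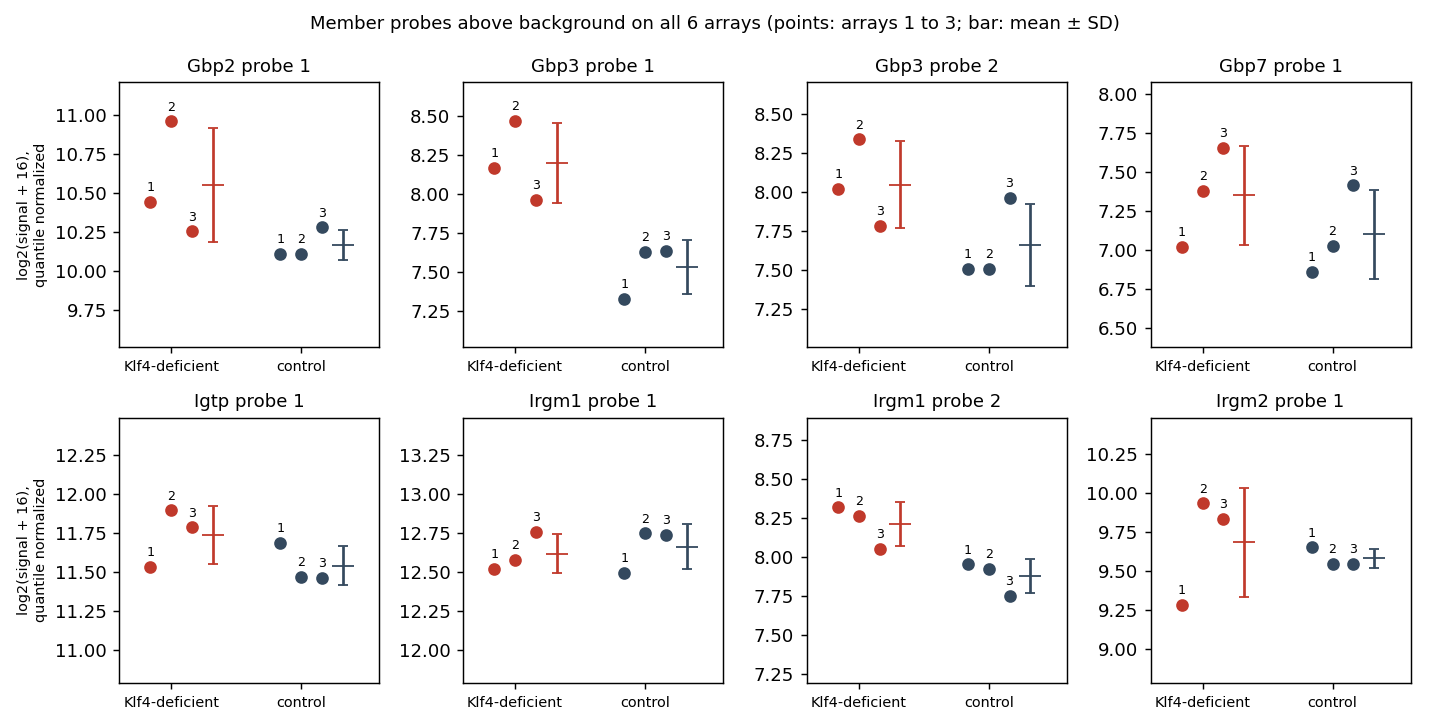
Level of each of the 8 member probes above background on all 6 arrays, as quantile-normalized log2(signal + 16) on the y axis, with points numbered by array and bars for the mean ± SD (n = 3). Klf4-deficient and control arrays do not overlap for Gbp3 probe 1 and Irgm1 probe 2, and overlap for the other 6.

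Gbp3 had the largest difference of the members measured. Its brighter probe gave signals of 270.9, 346.3 and 202.1 in Klf4-deficient arrays 1, 2 and 3, against 157.0, 175.7 and 192.4 in control arrays 1, 2 and 3. All 3 Klf4-deficient arrays were above all 3 controls, with array 2 the highest. The log2 difference was 0.67 ± 0.17 (SE), which is 1.59-fold on the normalized scale, with a 95% interval from 0.23 to 1.10. It did not pass in limma after adjustment over all probes (adjusted p = 0.641). The second Gbp3 probe gave 244.4, 314.1 and 179.3 in Klf4-deficient arrays and 178.8, 160.3 and 244.2 in controls. Here the groups overlapped, since control array 3 lay above Klf4-deficient array 3, and the difference was 0.39 ± 0.20 with an interval from -0.15 to 0.92, and 0.24 without Klf4-deficient array 2. The gap between the 2 probes differed between the groups by -0.28, with an exact two-sided permutation p of 0.10, the smallest that 3 against 3 arrays can give.

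Gbp2, the GBP best known for targeting the Toxoplasma vacuole in mice, had its brightest probe at 1400, 2057 and 1006 in Klf4-deficient arrays, against 1164, 1076 and 1310 in controls. Klf4-deficient array 2 stood above every other array and array 3 was within the control range after normalization. The log2 difference was 0.39 ± 0.20 (SE, adjusted p = 0.824 from limma), with an interval from -0.14 to 0.91, and it was 0.18 without Klf4-deficient array 2. A second Gbp2 probe passed the limit on that same array alone, with 34.1 there and at most 21.0 on any other, and the third was below background throughout.

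Gbp7, which encodes another member of the chromosome 3 cluster, had 112.8, 155.0 and 164.5 in Klf4-deficient arrays and 107.8, 110.5 and 161.4 in controls for its brighter probe. The groups overlapped and the log2 difference was 0.25 ± 0.23 (SE). It was 0.10 without Klf4-deficient array 3, 0.13 without control array 1, and 0.41 both without Klf4-deficient array 1 and without control array 3. Its dimmer probe gave 32.9, 34.4 and 38.1 in Klf4-deficient arrays, against 17.9, 28.3 and 31.7 in controls. These groups did not overlap, but control array 1 was under the background limit, and the difference of 0.36 ± 0.17 did not pass (adjusted p = 0.824 from limma, as for the brighter probe). Gbp4 and Gbp6, GBPs of the chromosome 5 cluster, had signals of at most 8.0 and -3.7 on any array, so no difference is given.

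Irgm1, the regulatory IRG that holds effector IRGs off lysosomes and the Golgi, was bright on every array. Its brightest probe gave 5984, 6391 and 5820 in Klf4-deficient arrays, against 5972, 6907 and 7314 in controls. The groups overlapped, and the log2 difference was -0.04 ± 0.10 (SE) with an interval from -0.31 to 0.23. A dimmer Irgm1 probe gave 306.1, 298.0 and 216.3 in Klf4-deficient arrays and 251.3, 220.8 and 209.0 in controls. On the normalized scale the 3 Klf4-deficient arrays were the 3 highest for this probe, and the difference was 0.33 ± 0.10 (SE, adjusted p = 0.688 from limma). The gap between these probes differed between the groups by 0.38, with an exact two-sided permutation p of 0.20, where 0.10 is the smallest that 3 against 3 arrays can give. The third Irgm1 probe was below background on every array.

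Igtp and Irgm2, the regulatory IRGs of the endoplasmic reticulum and the Golgi, had groups that overlapped. Igtp had 2970, 3987 and 2978 in Klf4-deficient arrays and 3489, 2778 and 2996 in controls. Its log2 difference was 0.20 ± 0.12 (SE, adjusted p = 0.824 from limma), with an interval from -0.12 to 0.51. It was 0.30 without Klf4-deficient array 1, 0.12 without Klf4-deficient array 2 and 0.09 with no normalization between arrays. Irgm2 had 613.0, 994.8 and 768.6 in Klf4-deficient arrays and 847.6, 718.1 and 773.9 in controls. Klf4-deficient array 1 was the lowest of the 6 arrays for Irgm2 and array 2 the highest, so the spread inside the Klf4-deficient group held the whole control range. The difference of Irgm2 was 0.10 ± 0.19 (SE, adjusted p = 0.999), 0.30 without Klf4-deficient array 1 and -0.02 without array 2.

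The effector IRGs Iigp1 and Tgtp1, which load onto pathogen vacuoles and vesiculate them, had no probe above background. Iigp1 is the one member outside the clusters named above, on another chromosome. The 4 Iigp1 probes ranged from -14.0 to 12.3 in Klf4-deficient arrays and from -11.6 to 15.4 in controls, all under the limit. The Tgtp1 probe gave -1.9, 9.1 and -7.2 in Klf4-deficient arrays and -1.1, 0.7 and 2.4 in controls. Tgtp1 has a near-identical neighbour, Tgtp2, whose signal on this probe could not be told apart, and the close relatives among the GBPs leave the same uncertainty.

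The 8 probes did not peak in 1 array. On the normalized scale, 5 of them were highest of all 6 arrays in Klf4-deficient array 2, 2 in Klf4-deficient array 3 and 1 in Klf4-deficient array 1. The mean of the 6 measured genes, relative to the control mean, was 0.07, 0.44 and 0.28 in Klf4-deficient arrays 1, 2 and 3 and -0.08, -0.01 and 0.08 in control arrays 1, 2 and 3. By this mean, Klf4-deficient array 1 lay inside the control range. Over the 8 probes the mean was 0.15, 0.46 and 0.25 in Klf4-deficient arrays and -0.07, -0.02 and 0.08 in controls, and array 1 lay above all controls. Likeness was taken to the mean of the 6 measured genes. Of 8354 other genes above background on all arrays, the 5 closest to it were Ipo7, Srek1ip1, Gm12250, Tmem120b and Trim46. Their root mean square differences were 0.046, 0.067, 0.073, 0.075 and 0.077 over the 6 arrays, against a median of 0.272. Gm12250, the third of these genes, encodes the IRG Irgb10, which acts on bacterial membranes, and its gene lies next to Igtp on chromosome 11.

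Other GTPases related to the members were taken from a list of 19 genes, of which 16 were measured and 5 were above background on all arrays. None passed the adjusted threshold in limma. At an unadjusted p under 0.05, 3 were higher and 1 was lower, beside 3.46% and 4.13% of all 19057 genes. Ifi47, which encodes the IRG Irgd, had 338.0, 353.9 and 321.6 in Klf4-deficient arrays and 339.1, 261.0 and 258.9 in controls (log2 0.34 ± 0.10 SE, adjusted p = 0.698). Gvin1, a very large interferon-inducible GTPase, had 71.2, 146.9 and 141.5 in Klf4-deficient arrays and 30.7, 22.3 and 44.9 in controls (log2 1.53 ± 0.33, adjusted p = 0.588), and control 2 was under the limit. Mx2, a dynamin-like GTPase, had 35.5, 46.0 and 34.3 in Klf4-deficient arrays and 25.6, 21.6 and 20.4 in controls (log2 0.56 ± 0.12, adjusted p = 0.587), and controls 2 and 3 were under the limit. Gm12250 had 31.6, 46.0 and 33.3 in Klf4-deficient arrays and 31.5, 26.4 and 31.1 in controls (log2 0.27 ± 0.13). Gbp9, the gene lower at the unadjusted threshold, was under the background limit on every array, as were Gbp2b, Gbp5, Gbp8, Gbp11, Gm4951, Mx1 and Atl1.

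**Figure D3:**
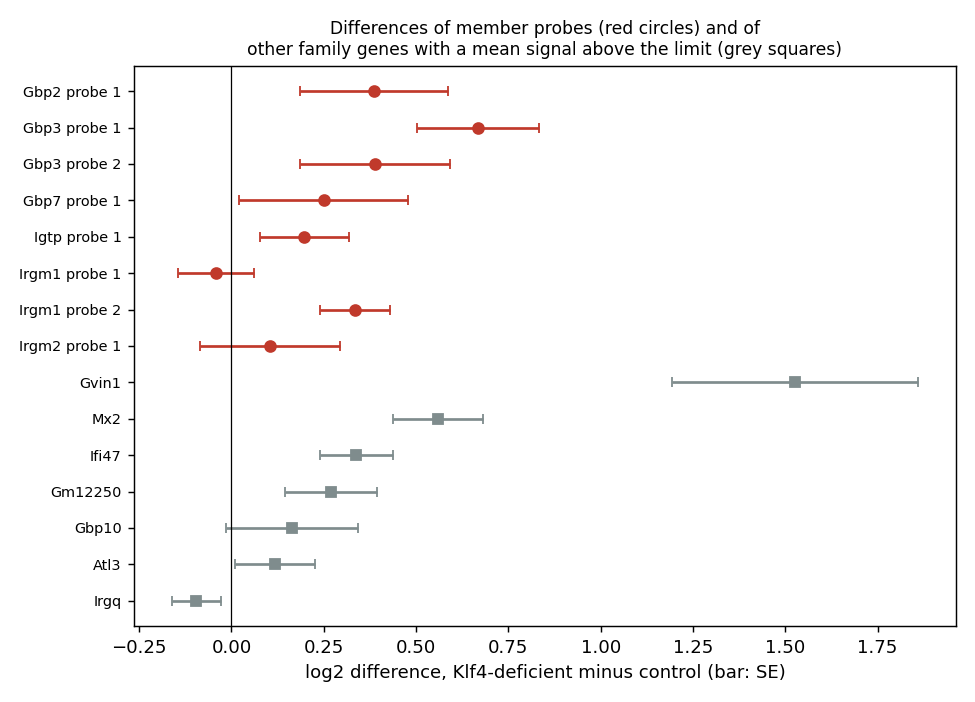
Log2 difference (Klf4-deficient minus control, bars SE) of the 8 member probes above background (red circles) and of other family genes with a mean signal above the limit (grey squares). Member differences run from -0.04 to 0.67, and Gvin1, under the background limit on 1 control array, is at 1.53.

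The genes that drive and accompany GBP and IRG induction were read from lists of the interferon pathways. Ifng, the gene of the inducing cytokine, had 21.3, 36.9 and 17.0 for its first probe in Klf4-deficient arrays and -5.5, 5.0 and 13.8 in controls, with 1 array above background, and its second probe passed the limit on none. Irf1, the interferon-induced factor that binds the ISRE of many GBPs, had, for the brightest of its 5 probes, 4513, 4470 and 2640 in Klf4-deficient arrays and 3818, 3332 and 3837 in controls (log2 0.14 ± 0.16 SE, adjusted p = 0.867 from limma). Of 16 measured signalling genes, 0 passed the adjusted threshold, and the median difference was 0.06. With no adjustment, 3 were higher at p under 0.05 and 1 was lower, beside 3.46% and 4.13% of all genes. Irf9, the DNA-binding part of the type I interferon complex, differed by 0.72 ± 0.09 and Nlrc5, an activator of MHC class I genes, by 1.41 ± 0.37, both with groups that did not overlap.

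Effector genes of type I interferon had a median difference of 0.52. Of 28 measured, 14 passed p under 0.05 without adjustment, all of them higher (3.46% of all genes). The groups of 16 did not overlap with Klf4-deficient arrays higher (5.45% of all genes), and 0 passed the adjusted threshold in limma. Isg15, the ubiquitin-like modifier, had 479.0, 738.2 and 645.0 in Klf4-deficient arrays and 383.5, 405.5 and 405.7 in controls. Of 25 measured effector genes of interferon gamma, 2 were higher and 1 was lower at that unadjusted threshold (3.46% and 4.13% of all genes). The groups of 4 did not overlap with Klf4-deficient arrays higher, and the median was 0.16. H2-D1, an MHC class I chain, differed by 0.72 ± 0.14, and Tap2, a subunit of the peptide transporter, by -0.21 ± 0.05. No test compared these lists with the members.

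Partners of the members in membrane attack were read in the same way. Of 16 genes of autophagy conjugation, 2 were higher and 1 was lower at p under 0.05 without adjustment (3.46% and 4.13% of all genes). Their median was -0.02, and the groups did not overlap for 2 higher and 3 lower genes (5.45% and 6.11% of all genes). Gabarap, which encodes 1 of several ATG8 proteins, differed by 0.28 ± 0.10 (SE), and Gabarapl2 of the same list was under the background limit on every array. Of 12 inflammasome and vacuole-ubiquitin genes, 11 had a difference above 0 and 1 below, 0 were past that threshold, and the median was 0.14. Casp1 had 278.0, 536.7 and 731.4 in Klf4-deficient arrays and 233.4, 250.8 and 229.0 in controls. Of 5 measured genes of the Ifi200 family, DNA sensors that interferon also induces, 1 was above background on all arrays, and 0 passed at the unadjusted threshold.

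Markers of other bone marrow cells varied between the arrays, with 0 genes past the adjusted threshold in limma, and their part in the members' values was not tested. In these bulk samples, more cells of a type and more RNA per cell cannot be told apart. Relative to the control mean, 17 measured monocyte and macrophage markers had mean levels of 0.30, 0.66 and 1.24 on Klf4-deficient arrays 1, 2 and 3, against -0.05 to 0.06 in controls. Of these 17, 7 were higher and 0 were lower with no adjustment at p under 0.05, beside 3.46% and 4.13% of all genes. Their summed signal was 4957 to 12265 in Klf4-deficient arrays, against 4069 to 5410 in controls, and Cd5l was under the limit throughout. Most of that sum was Lyz2 on every array, with 3552, 3130 and 9308 in Klf4-deficient arrays and 3748, 4143 and 2858 in controls. For the 12 measured NK and cytotoxic markers these levels were 0.21, 0.48 and 0.61 on Klf4-deficient arrays, against -0.03 to 0.02 on controls, with 4 genes higher and 0 lower at that threshold. Their summed signal was 2685 to 3571 in Klf4-deficient arrays and 2185 to 3144 in controls, and Ncr1, Klrk1, Gzmb, Eomes and Tbx21 were under the limit. For the 10 erythroid markers they were 0.24, 1.10 and 1.90 on Klf4-deficient arrays, against -0.42 to 0.24 on controls, with 2 genes higher and 0 lower. The erythroid signals summed to 42885 to 58025 on Klf4-deficient arrays, against 35158 to 42819 on controls, and none of these genes was under the limit throughout.

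**Figure D4:**
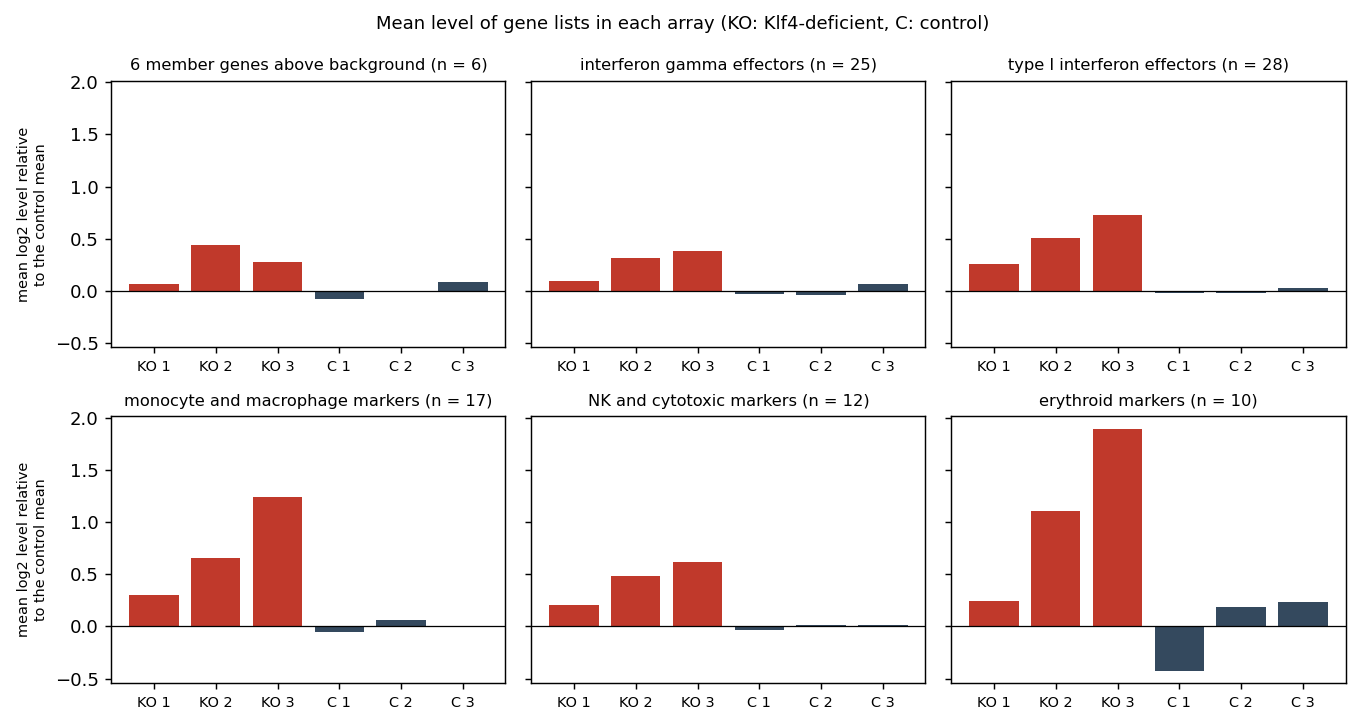
Mean log2 level relative to the control mean (y axis) of 6 member genes and 5 gene lists in each of 3 Klf4-deficient (KO, red) and 3 control (C, grey) arrays. The member bars run from 0.07 to 0.44 in Klf4-deficient arrays, and the erythroid bars reach 1.90 in Klf4-deficient array 3.

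Markers of neutrophils (13 measured), B cells (8) and T cells (12) had 0 genes past the unadjusted threshold in either direction. The neutrophil level was -0.21, -0.07 and 1.23 on Klf4-deficient arrays 1, 2 and 3, against -0.25 to 0.31 on controls. The neutrophil signals summed to 77313, 83829 and 149440 on these Klf4-deficient arrays and to 76274 to 106090 on controls. For the T cell markers the level was -0.12, -0.02 and -0.12 on Klf4-deficient arrays 1, 2 and 3, against -0.03 to 0.02 on controls. Of the 12 T cell genes, 9 had a difference below 0 and 3 above. Their signals, before normalization, summed to 112930, 117000 and 100110 on Klf4-deficient arrays and to 114910 to 123760 on controls. The neutrophil sum was thus large on every array, and above the T cell sum on Klf4-deficient array 3. At that threshold 1 of 7 megakaryocyte markers, Pf4, was higher, and 2 of 10 endothelial and stromal markers, Pecam1 and Lepr, were lower. Of all genes, 3.46% were higher and 4.13% lower. Pf4 and Lepr were under the limit on every array, as were in total 5 of the 7 and 8 of the 10.

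With Klf4-deficient arrays 2 and 3 both left out, the differences of Gbp3 probe 1, Gbp2 and Irgm1 probe 2 were 0.65, 0.28 and 0.45, while Irgm2 was at -0.29, Gbp7 at -0.08 and Igtp at -0.01. The remaining Klf4-deficient array is then assumed to vary like the controls. No member probe passed the adjusted threshold in limma in that setting.

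**Figure D5:**
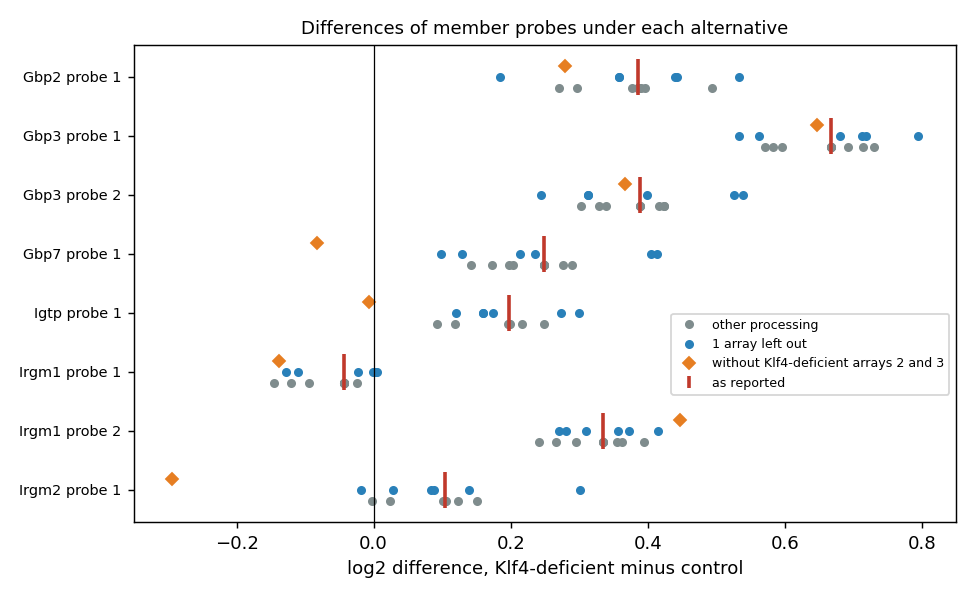
Log2 difference of the 8 member probes as reported (red bar), with 1 array left out (blue), without Klf4-deficient arrays 2 and 3 (orange) and under other processing (grey). Gbp2, both Gbp3 probes and Irgm1 probe 2 stay above 0 in all of these, and Irgm2 runs from -0.29 to 0.30.

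Among genes above background on all 6 arrays, members left out, 249 had the ISRE letters in a promoter window and 6615 did not. Their median differences were 0.01 and -0.01. The groups did not overlap with Klf4-deficient arrays higher for 27 of the 249 genes (10.8%), against 492 of the 6615 (7.44%), and with Klf4-deficient arrays lower for 20 (8.03%), against 669 (10.1%). These shares are descriptions without a test.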

How the data were processed

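The deposited table holds background-subtracted probe intensity. The submitters' processing notes name BeadStudio; the sources used here do not say which version, background method or scaling between arrays was used. Between 31.3% and 34.2% of the deposited intensity values of an array lie below 0. These were set to 0, 16 was added, and log2 values were quantile normalized. All 45281 probes were fitted with limma 3.58.1, run in R 4.3.3 with a variance trend, p-values were adjusted by Benjamini-Hochberg over all probes, and the threshold was 0.05. The fit was run on simulated data with the same noise for every probe and changes larger than any member difference. That run does not check differences of the members' size. A gene with several probes was read from the one with the highest mean signal.

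The members and gene lists were chosen with earlier results of these data known. The text names all members, Klf4, Irf1 and Ifng, up to 4 genes of smallest p in each list of related or pathway genes, and the 5 genes closest to the members' mean profile. Cell type markers and genes given as under the background limit were named after their values were seen. Precision is limited by the number of arrays, and an exact permutation test of 3 against 3 cannot go below 0.10.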

Additional observations from a re-analysis of the deposited data

How the results depend on the processing

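No member probe passed the adjusted threshold in limma under any of 17 alternatives, of which 1, leaving out Klf4-deficient arrays 2 and 3 together, was chosen after seeing the data. Irgm2 changed sign with no normalization between arrays (-0.0019) and without both of those arrays (-0.2947), and ran from -0.0183 without Klf4-deficient array 2 to 0.3018 without Klf4-deficient array 1. Without both arrays, Gbp7 was at -0.0822 and Igtp at -0.0068. Irgm1 probe 1 ran from -0.1272 without control array 1 to 0.0053 without Klf4-deficient array 1, and was at 0.0016 without control array 2. The median of the 10 genes ran from 0.0632 to 0.2957 with 1 array left out (without Klf4-deficient arrays 3 and 1) and was -0.0204 without arrays 2 and 3, 0.0855 when 50 was added before the log and 0.2378 when 1 was added. Over all probes, the number past the threshold was 0 with arrays centred on their median and with the replicate block, and 1 with cyclic loess and with probes above background on average. It ran from 22 without control array 1 to 49 without Klf4-deficient array 1, and was 1388 without arrays 2 and 3. The cause was not tested. The labels do not say whether shared replicate numbers pair the samples. Correlations of deviations were 0.127, -0.0617 and -0.0303 for same-numbered arrays and -0.133 to 0.159 for the others. These values cannot exclude a pairing. With the replicate block 0 of all probes passed the adjusted threshold, so no member's call could change there. The block took the SE of Gbp7 probe 1 from 0.2285 to 0.0571, with an unadjusted p of 0.0274 from limma. It took the SE of Igtp from 0.121 to 0.155.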
